A study of Mus musculus with 62 samples.

Results

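The 10 genes described here encode the orphan nuclear receptors Nr4a1, Nr4a2 and Nr4a3, the transcription factors Klf2, Fos, Fosb, Jun, Egr1 and Ier2, and the phosphatase Dusp1. They were chosen by name, as rows of a table of raw read counts that holds 37620 genes, and all 10 have a row. RNA had been sequenced in bulk from 62 mouse libraries. Of these, 48 came from 24 clones of ER-Hoxb8 cells, bone marrow granulocyte-monocyte progenitors that an estrogen-dependent Hoxb8 fusion keeps dividing in medium with serum and stem cell factor (SCF). Each clone gave 1 library of monocytic cells and 1 of progenitors, each clone is a line of its own, and all of them carry the Hoxb8 fusion. The titles mark the progenitor libraries as Plus and the monocytic ones as Minus. Any treatment that these marks stand for cannot be told apart from the state. The other 14 libraries came from primary monocytes sorted from mouse bone marrow, 2 each of nonclassical, intermediate and classical monocytes and 2 each of populations named class 4, class 3, class 2 and class 1. Strain, age, sex, the gates of the sorts and the definition of the classes are not given in the sources used here, and nothing ties a replicate to an animal. With no separate source stated for the replicates, p-values of the primary groups measure only the spread between these libraries.

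Immediate early genes are switched on within minutes of a stimulus without new protein synthesis, mostly through serum response factor and CREB, and their mRNAs are short lived. Fos and Fosb pair with Jun to form the AP-1 factor, Egr1 is a zinc finger activator that induces its own repressors, Ier2 is a nuclear immediate early protein, and Dusp1 removes phosphate from p38 and JNK kinases and so limits the same signals. The Nr4a receptors work without a known ligand and are immediate early genes as well. In mice, Nr4a1 is needed for nonclassical monocytes, and Klf2 governs quiescence and trafficking of leukocytes. The same genes are also known to be induced in cells while tissue is dissociated and sorted.

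The sequences just upstream of 4 members are shown because the results below turn on these genes and because their promoters are textbook examples of signal-driven promoters. Each is the 250 bases before the start of the RefSeq gene in build GRCm38.p6, read 5′ to 3′ on the gene's strand. Capitals mark the CRE core TGACG and the full cyclic AMP response element TGACGTCA, on either strand (CGTCA is TGACG on the other strand).
Nr4a1 (chr15:101266596-101266845, plus strand): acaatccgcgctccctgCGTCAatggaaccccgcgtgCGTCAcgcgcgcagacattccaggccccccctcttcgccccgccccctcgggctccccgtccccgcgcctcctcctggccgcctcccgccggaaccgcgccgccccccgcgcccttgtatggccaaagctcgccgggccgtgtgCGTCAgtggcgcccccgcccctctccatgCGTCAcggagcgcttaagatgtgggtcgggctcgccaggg
Fos (chr12:85473640-85473889, plus strand): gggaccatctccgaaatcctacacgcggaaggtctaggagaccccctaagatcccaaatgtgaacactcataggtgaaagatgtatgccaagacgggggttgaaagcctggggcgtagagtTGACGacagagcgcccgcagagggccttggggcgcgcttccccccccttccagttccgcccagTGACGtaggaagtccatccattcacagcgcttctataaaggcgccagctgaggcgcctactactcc
Fosb (chr7:19310046-19310295, minus strand): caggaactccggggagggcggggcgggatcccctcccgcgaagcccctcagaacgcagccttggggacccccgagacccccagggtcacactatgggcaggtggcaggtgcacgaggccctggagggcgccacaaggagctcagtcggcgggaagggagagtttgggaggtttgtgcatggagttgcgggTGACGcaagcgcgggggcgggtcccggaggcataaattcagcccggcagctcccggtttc
Dusp1 (chr17:26508473-26508722, minus strand): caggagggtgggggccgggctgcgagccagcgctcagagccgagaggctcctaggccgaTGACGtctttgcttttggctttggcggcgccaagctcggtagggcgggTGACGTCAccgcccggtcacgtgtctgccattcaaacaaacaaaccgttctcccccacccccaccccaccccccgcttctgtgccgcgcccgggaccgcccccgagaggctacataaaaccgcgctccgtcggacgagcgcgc

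Windows of 8 members were searched, those of all but Egr1 and Ier2. Ier2 had no window in the source used, and the Egr1 window was left out of the search. The presence or absence of a motif below therefore says nothing about either gene. TGACG stood in 7 of these 8, the exception being Jun, and in 17.7% of 32817 windows of the same length, both strands counted. The full element TGACGTCA, which contains the core, stood in the Dusp1 window alone among the 8 and in 1.55% of all windows. The EGR site GCGNGGGCG stood in the windows of Nr4a1, Nr4a2, Klf2 and Fosb and in 4.7% of all. TATAAA stood in those of Fos and, on the other strand, Nr4a2, and in 12.4% of all. Neither the CArG box (1.47% of all windows), nor the AP-1 site TGANTCA (6.75%), nor the Nr4a element AAAGGTCA (1.34%) stood in any of the 8. These are matches of letters in a short window and show no binding.

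Total counts (in units of M, mega) were 1.83 to 34.5 M for monocytic libraries, 0.362 to 47.3 M for progenitor libraries and 21.2 to 35 M for primary ones. The lowest, 0.362 M, was that of the clone 21 progenitors, in which no Nr4a1 or Fosb read was counted. The clones were split in 2 sets, 1 to 13 and 15 to 25, because the monocytic libraries of clones 15 to 25 were much shallower. The labels name no batch. Levels below are counts per M counts (CPM) scaled by TMM factors over all 62 libraries, and folds come from edgeR's quasi-likelihood test with Benjamini-Hochberg adjustment over all genes tested. The cells labelled monocytic held neutrophil genes at a summed median of 63170 CPM over 12 genes (391.1 to 203800), against 71.2 CPM in the progenitors. In bulk RNA, more cells that express a gene and more RNA per cell cannot be told apart.

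The question of the paired libraries was how the genes stand in the monocytic cells of a clone relative to its own progenitors. Of the 9 members tested, 7 rose and 2 fell in the monocytic cells, against 38.5% of all 11614 genes tested that rose and 40.1% that fell. Klf2 rose most, 44.0-fold, followed by Fos, 11.7-fold, and Jun, 9.54-fold. Nr4a1, Dusp1, Ier2 and Egr1 rose by 4.23-fold to 1.85-fold, while Nr4a2 and Fosb fell. The median log2 fold change of the 9 was 1.95, and that of all genes tested was -0.02.

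**Figure D1:**
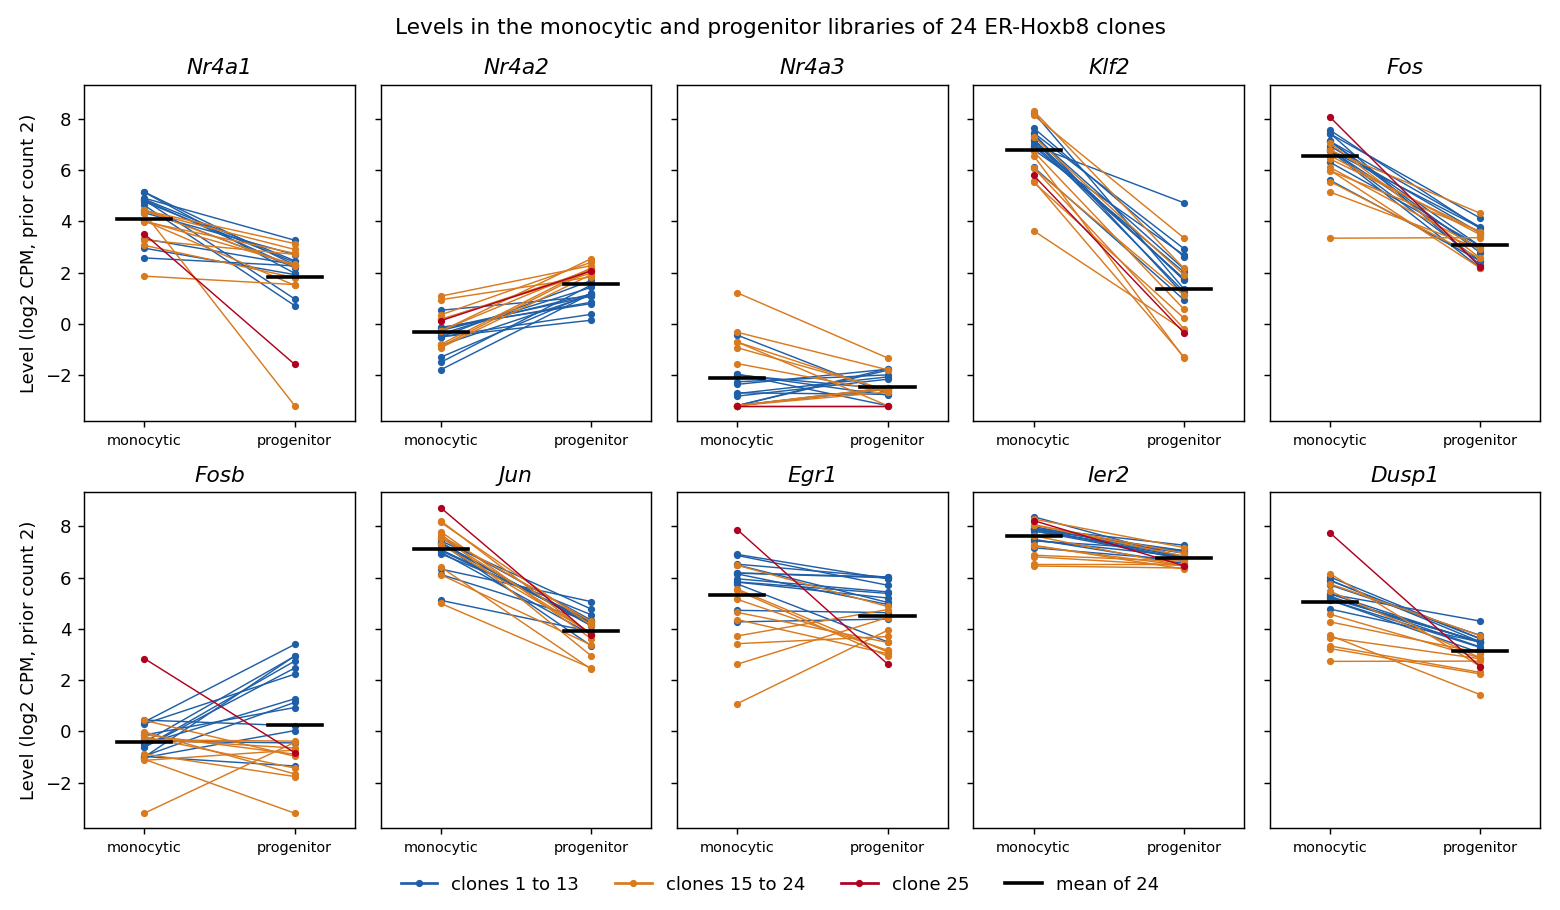
Level (log2 CPM with a prior count of 2) of each gene in the monocytic library, at the left of each panel, and the progenitor library, at the right, of the same clone, joined by a line for each of 24 clones. Black bars are means. The lines of Klf2, Fos and Jun run steeply from high monocytic to low progenitor levels, those of Nr4a2 run the other way in all 24 clones, and clone 25 stands highest in the monocytic cells for Fos, Fosb, Jun, Egr1 and Dusp1.

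Among the receptors, Nr4a1 lay between 3.51 and 35.2 CPM in the monocytic cells (median 20.4) and between 0 and 9.44 CPM in the progenitors (median 4.65). The ranges overlapped, yet the monocytic library was the higher one in 24 of 24 clones. The log2 fold change was 2.08 (SE 0.236), with an adjusted p of 6.71e-09 by edgeR. Nr4a2 ran the other way, at 0.180 to 2.01 CPM in monocytic cells (median 0.713) and 0.994 to 5.71 CPM in progenitors (median 2.93). It was lower in the monocytic cells of all 24 clones, with a log2 fold change of -1.88 (SE 0.194; adjusted p 1.03e-09, edgeR). Nr4a3 was close to absent in culture. Its level was 0 to 2.21 CPM in monocytic cells, with 9 libraries at 0, and 0 to 0.287 CPM in progenitors, with 4 at 0, and it failed the filter on low counts. The highest Nr4a3 value came from the clone 24 monocytic library. Per 1000 bases of transcript, the mean level of Nr4a1 in monocytic cells was 7.60 CPM, that of Nr4a2 0.219 and that of Nr4a3 0.0430, so Nr4a1 was the leading receptor of the family in that state.

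Klf2, the quiescence and trafficking factor, had 12.3 to 317.8 CPM in monocytic cells (median 126.3) and 0.287 to 26.2 CPM in progenitors (median 2.80). In every clone the monocytic library held more, by 5.46 on the log2 scale (SE 0.247; adjusted p 8.2e-17, edgeR). The progenitors of clone 1 held the most, 26.2 CPM, and the next clone, 20, held 10.1 CPM. Of 8 genes of leukocyte trafficking and the Klf family set beside Klf2, 7 were tested and 5 rose, among them Klf3 (log2 fold change 2.69, SE 0.224) and Klf13 (1.80, SE 0.154), and 1 fell.

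The AP-1 genes were split. Fos had 10.0 to 266.5 CPM in monocytic cells (median 108.8) and 4.38 to 19.7 CPM in progenitors (median 7.78). It was higher in 23 of 24 monocytic libraries, the exception being clone 19, with a log2 fold change of 3.55 (SE 0.233; adjusted p 1.25e-13, edgeR). Jun had 31.6 to 421.4 CPM in monocytic cells (median 159.4) and 5.28 to 33.2 CPM in progenitors (median 16.03). Its ranges almost parted, and it was higher in all 24 clones, by 3.25 (SE 0.202; adjusted p 4.18e-14, edgeR). Fosb, the relative of Fos, was scarce, at 0 to 7.07 CPM in monocytic cells (median 0.646) and 0 to 10.4 CPM in progenitors (median 0.647). It was called lower (log2 fold change -1.07, SE 0.441; adjusted p 0.0295, edgeR), although the monocytic library was higher in 12 of 24 clones.

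The other 3 members rose more modestly. Dusp1, the kinase phosphatase, had 6.52 to 214.1 CPM in monocytic cells (median 37.4) and 2.58 to 19.6 CPM in progenitors (median 9.60), and it was higher in 23 clones, again not in clone 19. Its log2 fold change was 1.95 (SE 0.193; adjusted p 4.89e-10, edgeR). Ier2 was the most even of the set, at 87.6 to 331.5 CPM in monocytic cells (median 225.3) and 80.1 to 153.3 CPM in progenitors (median 107.5). It was higher in 24 of 24 clones by only 0.90 on the log2 scale (SE 0.0952; adjusted p 1.68e-09, edgeR). Egr1 had 2.01 to 234.3 CPM in monocytic cells (median 55.1) and 6.09 to 64.9 CPM in progenitors (median 25.7). It was higher in 19 of 24 clones and lower in clones 11, 17, 19, 20 and 22 (log2 fold change 0.89, SE 0.294; adjusted p 0.00787, edgeR). In clones 15 to 25 fitted alone the Egr1 change was 1.09 with an adjusted p of 0.142.

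Other immediate early genes moved in the same direction as most members. Of 25 tested, 23 rose and 2 fell in the monocytic cells, with a median log2 fold change of 2.38. The leading ones were Atf3, a stress-responsive factor of the CREB family (5.18, SE 0.344), Gadd45b (4.06, SE 0.215) and Btg2, an antiproliferative gene (3.88, SE 0.188). The dual-specificity phosphatases other than Dusp1 did not move as one group, with 4 of 8 higher and 3 lower. Dusp3 rose (3.42, SE 0.257), and Dusp2 (-2.18, SE 0.205) and Dusp6, an ERK phosphatase (-1.44, SE 0.137), fell. Among 17 regulators of these genes 9 rose and 2 fell, led by Nab2, the Egr1 corepressor (2.39, SE 0.194), Mkl1, a cofactor of serum response factor (1.87, SE 0.129), and Mef2a (1.70, SE 0.178). Of 8 partners and cofactors of nuclear receptors 5 rose and none fell, led by the retinoid receptors Rara (3.79, SE 0.271) and Rxra (2.46, SE 0.229) and by Ncoa3 (1.97, SE 0.182).

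Most heat shock and chaperone genes went the other way. Of 10 tested, 7 fell and 1 rose in the monocytic cells, with Hspd1 at -2.04 (SE 0.108), Hspe1 at -1.82 (SE 0.191) and Hsp90aa1 at -1.48 (SE 0.135). The 1 that rose was the inducible chaperone Hspa1b (1.73, SE 0.38), which had low counts. The summed level of the heat shock genes had a median of 3587 CPM in monocytic cells and 7412 CPM in progenitors. How the cells of the 2 states were handled before lysis is not given in the sources used here, and the part of handling in these differences was not tested. All 11 neutrophil genes tested rose as well, and their part in the differences was not tested.

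The 2 clone sets gave much the same changes for most members, with exceptions for Fosb and Jun. Of the 9 members, these 2 changed differently between the sets, against 23.7% of all genes tested (748 with a larger value and 2007 with a smaller one in clones 15 to 25, or 1139 and 1587 with DESeq2's size factors). Fosb changed by 1.10 (SE 0.559) in clones 15 to 25, against -2.03 (SE 0.379) for clones 1 to 13, which is a difference of 3.12 (SE 0.685; adjusted p 0.00208, edgeR). It was higher in the monocytic cells of 9 of 11 clones in the set of 15 to 25, and of 3 of 13 clones in the set of 1 to 13. The progenitors carried that contrast, with a median of 0.431 CPM in clones 15 to 25 (0 to 0.661) and of 2.31 CPM in clones 1 to 13 (0.284 to 10.4). In the monocytic cells the medians were 0.709 CPM in clones 15 to 25 and 0.599 CPM in clones 1 to 13. The monocytic libraries of clones 15 to 25 held 1.83 to 9.12 M counts, so such a level stands for only a few reads there.

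Jun rose in both sets, by 3.87 (SE 0.255) in clones 15 to 25 and by 2.76 (SE 0.221) in clones 1 to 13. The difference was 1.11 (SE 0.314; adjusted p 0.0118, edgeR). Fos rose by 3.07 in the set of clones 15 to 25, against 3.89 for clones 1 to 13, which leaves a difference of -0.82 (SE 0.409) that did not pass (adjusted p 0.147, edgeR). Without clone 25 this difference was -1.06 and passed (adjusted p 0.0372, edgeR). For Nr4a1, Nr4a2, Klf2, Egr1, Ier2 and Dusp1 the difference lay between -0.56 and 0.57 and did not pass. The sets also differ in depth, so that depth and whatever else set them apart cannot be told apart.

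**Figure D2:**
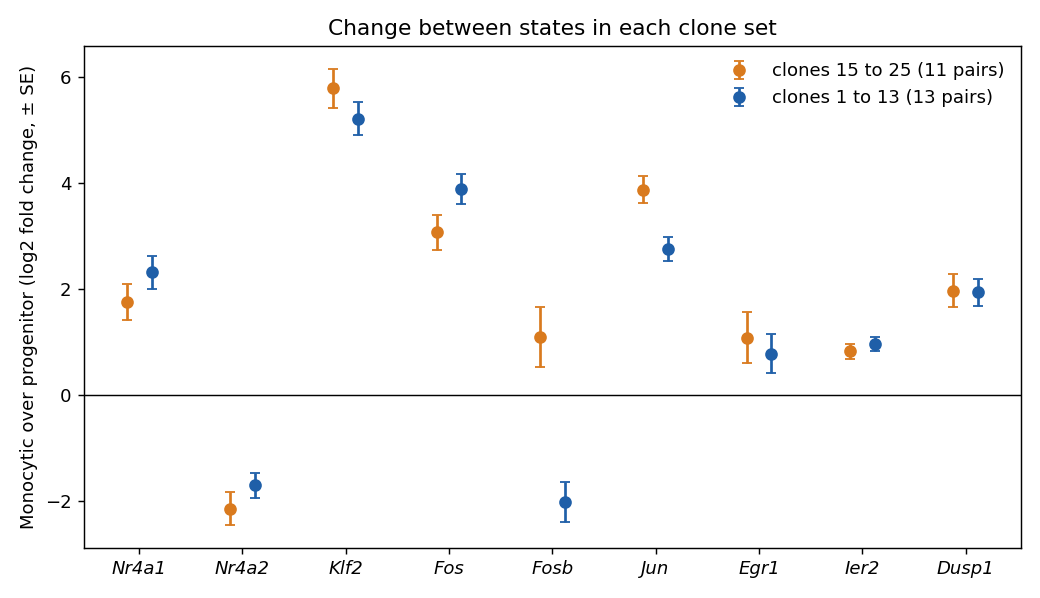
Log2 fold change of monocytic over progenitor cells (points, with SE as bars) for the 9 members tested, in clones 15 to 25 (left of each pair) and clones 1 to 13 (right). Fosb lies above 0 in clones 15 to 25 and below 0 in clones 1 to 13, and the Jun points are 1.11 apart, while the other pairs lie closer or have overlapping bars.

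Single clones stood at the ends of these ranges. The clone 25 monocytic library, of 3.94 M counts, held the highest Fos (266.5 CPM), Fosb (7.07 CPM), Jun (421.4 CPM), Egr1 (234.3 CPM) and Dusp1 (214.1 CPM) of all 24. The next values were 186.8 CPM for Fos and 1.25 CPM for Fosb in clone 1, 295.0 CPM for Jun and 70.8 CPM for Dusp1 in clone 15, and 119.3 CPM for Egr1 in clone 4. That library was the top one for 5 of the 10 members and for 4.93% of 8465 genes. Its Nr4a1 and Klf2 levels lay below the medians of the 24. At the low end, the clone 22 monocytic library was the lowest for Nr4a1, Klf2, Jun, Egr1 and Ier2, and that of clone 19, the shallowest at 1.83 M, for Fos, Fosb and Dusp1. Clone 22 was itself the top monocytic library for 9.69% of the 8465 genes and clone 19 for 8.74%. The share of genes lowest in either was not counted.

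The next question was whether a clone keeps its level of a member in both states. The clone term passed for Klf2 (F 4.64, adjusted p 0.00385, edgeR) and Dusp1 (F 2.85, adjusted p 0.0448, edgeR), that is 2 of 9 members against 11.7% of all genes tested. Dusp1 did not pass without clone 21 (adjusted p 0.053, edgeR), and neither passed in clones 1 to 13 alone (adjusted p 0.961 and 1, edgeR). In clones 15 to 25 alone, 1 of the 2 did not pass either. Over 24 clones, the monocytic level of Klf2 rose with the progenitor level, with Pearson's r of 0.62 (permutation p 0.00144, adjusted 0.0268) and Spearman's rho of 0.71 (permutation p 0.00014, adjusted 0.0119). Without the 2 clones farthest from the median on the progenitor axis r was 0.66. Taken set by set, r was 0.71 over clones 15 to 25, against -0.02 over clones 1 to 13, so the relation did not hold within clones 1 to 13.

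Ier2 behaved alike, with r of 0.60 (permutation p 0.00214, adjusted 0.0334) and rho of 0.63 (permutation p 0.00131, adjusted 0.0417), and with r of 0.55 without the 2 farthest clones. Its r was 0.66 within clones 15 to 25 and 0.13 within clones 1 to 13, and without clone 21 the adjusted p was 0.0669. Dusp1 had r of 0.45 (adjusted p 0.147, permutation), which became 0.65 (adjusted p 0.0223, permutation) without clone 25. The other 6 members had r between 0.00 and 0.32 and did not pass. These tests were 2-sided, were adjusted over 11614 genes, and passed for 8.25% of them. High values within a set were not particular to Klf2 and Ier2. Jun had r of 0.73 within clones 15 to 25 and -0.05 within clones 1 to 13, and Egr1 had -0.41 and 0.61. The r values within single sets are descriptions without a test. With each set centred on its own mean, Klf2 had r of 0.52 (adjusted p 0.269, permutation) and Ier2 0.54 (adjusted p 0.259, permutation).

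Over the 48 clone libraries, each centred on its state within its clone set, the genes most like each member were the following, with Pearson's r as a description. Dusp1 was the gene most like Fos (0.70), ahead of Irf5 (0.70) and Stambpl1 (0.69). Without clone 25 Dusp1 was no longer ahead, with r of 0.64 against 0.71 for Irf5. Junb, another AP-1 gene, was among the 5 most alike for Fos (0.68), Egr1 (0.68) and Dusp1 (0.75). Egr1 was most like Nab2, its corepressor (0.71), and Dusp16 (0.71). Jun was most like Mvp (0.84), Ier5 (0.82) and Coro1c (0.82), and Dusp1 also like Cep170 (0.76) and Ier5 (0.73). Klf2 was most like Lsp1 (0.84), Tnfrsf1a (0.81) and Itgam (0.80), and Ier2 like Gpank1 (0.79) and Ubb (0.78).

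The 5 genes most like Nr4a1 were Pion (0.79), Skil (0.76), Susd3 (0.75), Smad3, a mediator of TGF-beta signals (0.74), and Rasgef1b (0.73). Its r with the other 8 members tested ran from -0.13 with Nr4a2 to 0.43 with Egr1, and that of Ier2 from -0.24 with Nr4a2 to 0.40 with Klf2. Fos, Jun, Egr1 and Dusp1 had r of 0.57 to 0.70 with each other. Without clone 25 that range was 0.42 to 0.64. The most alike genes of Nr4a2 (Diexf, 0.64) and Fosb (Rab2b, 0.58) had lower r, and both members had low counts.

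In the sorted primary monocytes all members except Nr4a2 and Nr4a3 were abundant, at 53.1 CPM (Fosb in class 4 replicate 1) or more in each library. Relative to the 24 cultured monocytic libraries, 9 of 10 members were higher in the 2 classical libraries and none was lower, against 14.9% of 14319 genes higher and 15.8% lower. Fosb differed most, at 403.7 and 570.6 CPM in classical monocytes, against 0 to 7.07 CPM in the monocytic clones (log2 fold change 9.11, SE 0.433; adjusted p 1.47e-15, edgeR). Dusp1 had 1633 and 3280 CPM in classical monocytes, against at most 214.1 CPM in the clones (5.78, SE 0.493; adjusted p 2.75e-10, edgeR). Fos had 4233 and 7551 CPM in classical monocytes, against at most 266.5 CPM in the clones (5.73, SE 0.380; adjusted p 1.61e-12, edgeR).

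The other differences from culture were smaller. Nr4a1 was higher by 4.59 (SE 0.354), Jun by 4.45 (SE 0.404), Nr4a2 by 3.77 (SE 0.408), Egr1 by 2.61 (SE 0.674), Ier2 by 2.51 (SE 0.291) and Klf2 by 2.43 (SE 0.503), all past the threshold. Nr4a3 was not (2.46, SE 0.9997; adjusted p 0.0617, edgeR). Klf2 and Egr1 did not pass without classical replicate 2 (adjusted p 0.0891 and 0.239, edgeR). All 14 primary libraries lay above all 24 monocytic ones for Nr4a1, Fos, Fosb, Jun, Ier2 and Dusp1. The ranges overlapped for Klf2, Egr1, Nr4a2 and Nr4a3. How large a share of all genes parts in this way was not counted.

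Together the 10 genes took 0.844% to 4.16% of all counts in the primary libraries, against a median of 0.0657% in monocytic clones and 0.0214% in progenitors. Of 27 other immediate early genes 17 were higher and 2 lower in classical monocytes than in the clones, and of 12 heat shock genes 7 were higher and none lower. Summed heat shock levels were 6327 and 8923 CPM in classical monocytes and 1250 to 4539 CPM in the monocytic clones. The sort, the origin of the cells and their culture are confounded with this contrast and cannot be told apart.

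**Figure D3:**
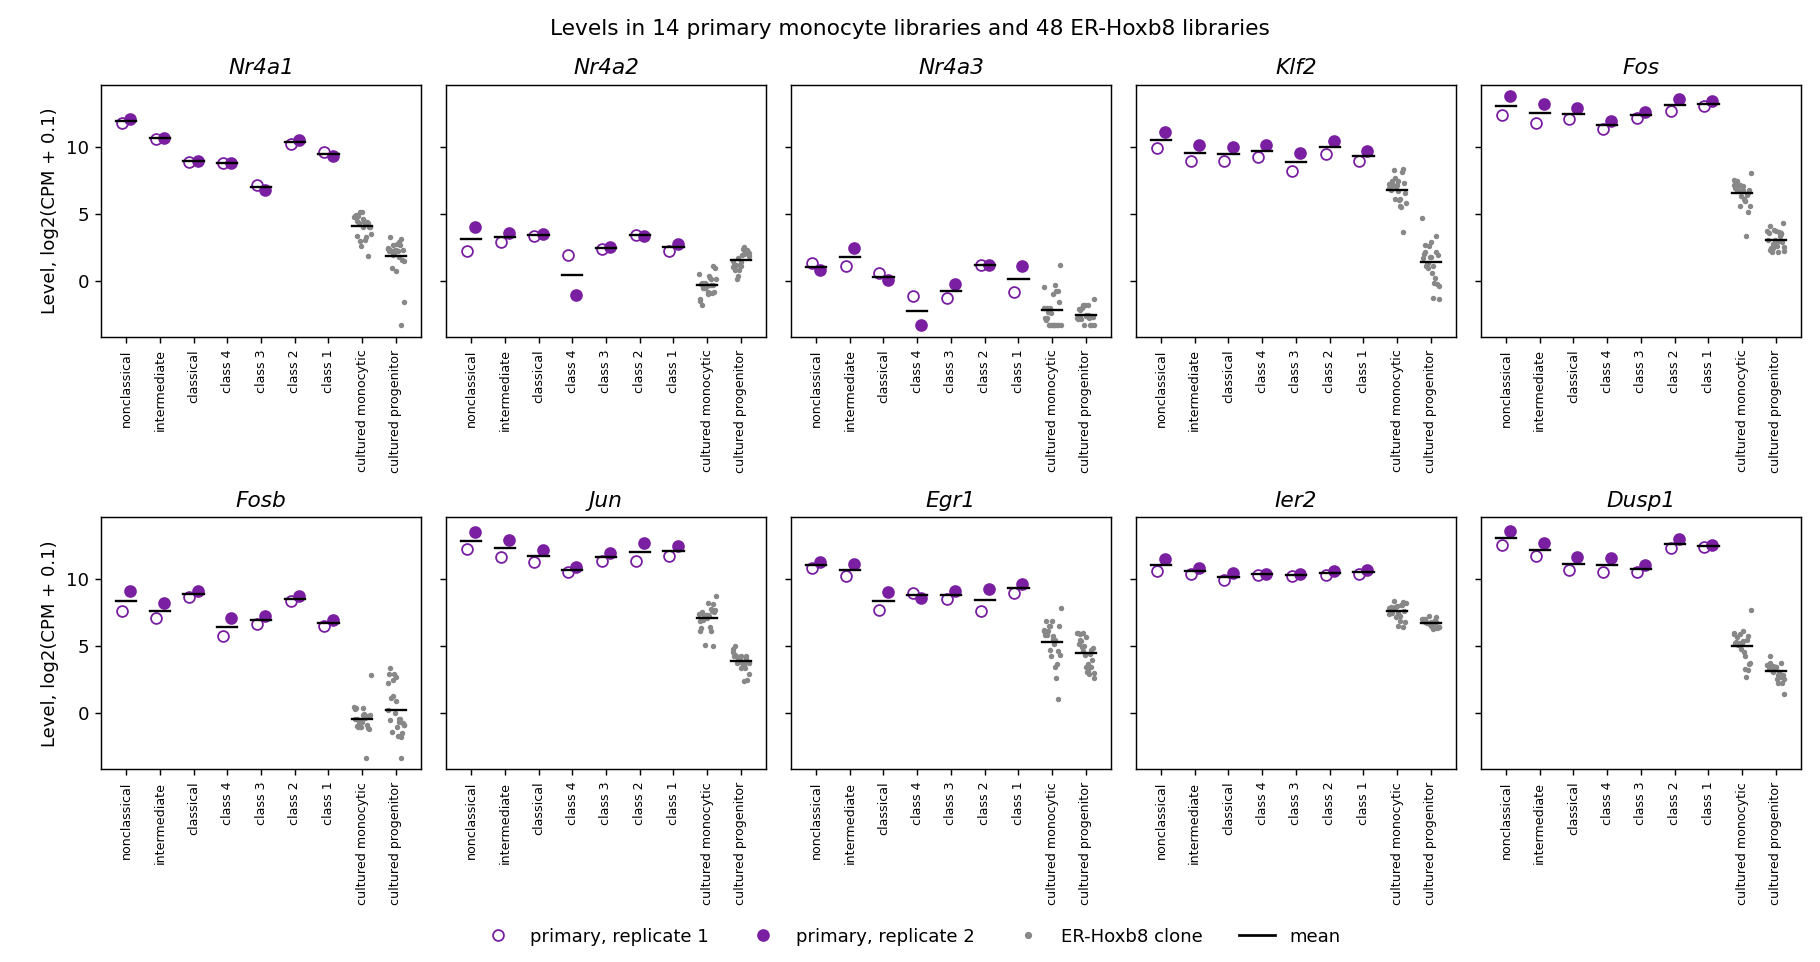
Level of each member, log2(CPM + 0.1), in the primary groups (open circles replicate 1, filled circles replicate 2), in the 24 monocytic and in the 24 progenitor libraries of ER-Hoxb8 clones (grey points). Black bars are means of the plotted values. For Fos, Fosb, Jun, Ier2, Dusp1 and Nr4a1 all primary libraries stand above all clones (the share of all genes that do so was not counted). Nr4a1 is the member whose primary groups are farthest apart relative to their replicates.

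Nr4a1 separated the monocyte subsets. It had 3422 and 4310 CPM in nonclassical, 1550 and 1626 CPM in intermediate, and 474.2 and 487.9 CPM in classical monocytes, with no overlap. Relative to classical monocytes it was 8.27-fold higher in nonclassical ones (log2 fold change 3.05, SE 0.159; adjusted p 0.00439, edgeR) and 3.45-fold higher in intermediate ones (1.79, SE 0.152; adjusted p 0.0188, edgeR). It was the 1 member of 10 that passed by this fit in either comparison. Other fits called more members, all of them higher than in classical monocytes. DESeq2 added Egr1 (adjusted p 4.98e-06), Ier2 (0.036) and Dusp1 (0.000729) in nonclassical monocytes and Egr1 (6.72e-05) in intermediate ones. In 1 edgeR fit of all 14 primary libraries the same members were added (0.0148, 0.039 and 0.0221 for nonclassical, and 0.0277 for Egr1 in intermediate monocytes). Of all 13944 genes tested, 2.91% were higher and 2.9% lower in nonclassical monocytes, and 1.19% higher and 0.918% lower in intermediate ones. Between nonclassical and intermediate monocytes Nr4a1 differed by 1.26 (SE 0.149; adjusted p 0.22, edgeR), and 0% of genes passed there, 1710 of them having an unadjusted p under 0.05 and 1212 passing with DESeq2, Nr4a1 among them (adjusted p 1.25e-17). With either classical library left out, 0 genes passed in the first 2 comparisons and Nr4a1 differed by 2.99 and 3.03 in nonclassical, and by 1.74 and 1.76 in intermediate monocytes (lowest adjusted p 0.0918, edgeR). The intermediate comparison also lost Nr4a1 with either intermediate library left out (adjusted p 0.0941 and 0.104, edgeR).

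Egr1 and Dusp1 had the next largest differences but wider spreads. Egr1 had 1818 and 2526 CPM in nonclassical, 1216 and 2319 CPM in intermediate, and 211.7 and 538.0 CPM in classical monocytes. Every nonclassical and intermediate library thus lay above both classical ones. The log2 fold change was 2.58 (SE 0.550; adjusted p 0.0677, edgeR) for nonclassical and 2.31 (SE 0.544; adjusted p 0.104, edgeR) for intermediate monocytes. Dusp1 had 6197 and 12720 CPM in nonclassical, 3374 and 6702 CPM in intermediate, and 1633 and 3280 CPM in classical monocytes (1.97, SE 0.538, and 1.10, SE 0.526; adjusted p 0.113 and 0.283, edgeR).

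None of the remaining members passed by the fit of the 6 libraries. Fos had 5178 and 13910 CPM in nonclassical, 3552 and 9301 CPM in intermediate, and 4233 and 7551 CPM in classical monocytes, so that the groups overlapped. Jun had 4964 and 11600 CPM in nonclassical, 3293 and 7848 CPM in intermediate, and 2546 and 4722 CPM in classical monocytes. Both nonclassical libraries thus lay above both classical ones, the intermediate ones overlapped with either group, and Jun kept the order nonclassical, intermediate, classical within each replicate number. Ier2 had 1539 and 2970 CPM in nonclassical, 1329 and 1852 CPM in intermediate, and 978.1 and 1423 CPM in classical monocytes, and its change in nonclassical monocytes was 0.94 (SE 0.350; adjusted p 0.199, edgeR). Klf2 had 978.5 and 2158 CPM in nonclassical, 483.9 and 1151 CPM in intermediate, and 488.9 and 999.6 CPM in classical monocytes. In each of these 4 genes, replicate 1 of a group lay below replicate 2. Fosb was at 193.4 and 563.2 CPM in nonclassical, 136.5 and 299.3 CPM in intermediate, and 403.7 and 570.6 CPM in classical monocytes, and Nr4a2 at 4.45 and 16.2, 7.30 and 11.9, and 9.80 and 11.4 CPM in the same order of groups. Nr4a3 stayed between 0.958 and 5.44 CPM in all 6 libraries.

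Other immediate early genes were higher in nonclassical than in classical monocytes in 10 of 27 cases and lower in none, led by Myc (2.75, SE 0.254), Socs3 (2.65, SE 0.329) and Nfkbiz (2.43, SE 0.180). In intermediate monocytes 3 of 27 were higher. Of 8 dual-specificity phosphatases 3 were higher in nonclassical monocytes, Dusp16 (5.70, SE 0.745), Dusp2 (3.89, SE 0.528) and Dusp5 (3.76, SE 0.234). Beside Klf2, the sphingosine phosphate receptors S1pr1 (6.23, SE 0.476) and S1pr5 (4.26, SE 0.482), which guide exit from tissue, were higher, and 3 of the 8 trafficking genes were lower. Heat shock genes were higher in 8 of 12 cases in nonclassical monocytes, led by Hspb1 (5.64, SE 0.744), Dnajb1 (2.98, SE 0.365) and Hsph1 (2.78, SE 0.367). Their summed level was 21210 and 33210 CPM in nonclassical, 13960 and 21660 CPM in intermediate, and 6327 and 8923 CPM in classical monocytes. The part of a response to sorting in the Nr4a1, Egr1 and Dusp1 differences was not tested.

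The labels were checked against marker lists. Nonclassical monocyte genes were higher in nonclassical than in classical monocytes in 13 of 16 cases, led by Cd300e (9.95, SE 0.657). Those that did not pass were Cx3cr1 (0.47, SE 0.197), Itgal (0.11, SE 0.234) and Spn (-0.71, SE 0.279). Of 12 classical monocyte genes 5 were lower, among them Ly6c2 (-6.97, SE 0.362), and Irf4 was higher (2.06, SE 0.382). Genes of other cells were higher too. The 7 B cell genes summed to 1959 to 2135 CPM in nonclassical, 413.6 to 458.6 CPM in intermediate and 33.6 to 37.0 CPM in classical libraries. The 7 mast cell and basophil genes summed to 1779 to 7208 CPM, 4080 to 8749 CPM and 7.72 to 17.5 CPM in the same groups, and the 8 dendritic cell genes to 9611 to 9619 CPM, 6758 to 7837 CPM and 182.2 to 203.0 CPM. No B cell, mast cell or dendritic cell marker but Ccr9, at 0 in nonclassical monocytes, was at 0 in these groups. Tissue macrophage genes summed to 647.3 to 843.7 CPM in nonclassical and 706.4 to 919.3 CPM in intermediate libraries, against 15.9 to 19.1 CPM in classical ones. The part of such cells in the members' levels was not tested.

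**Figure D4:**
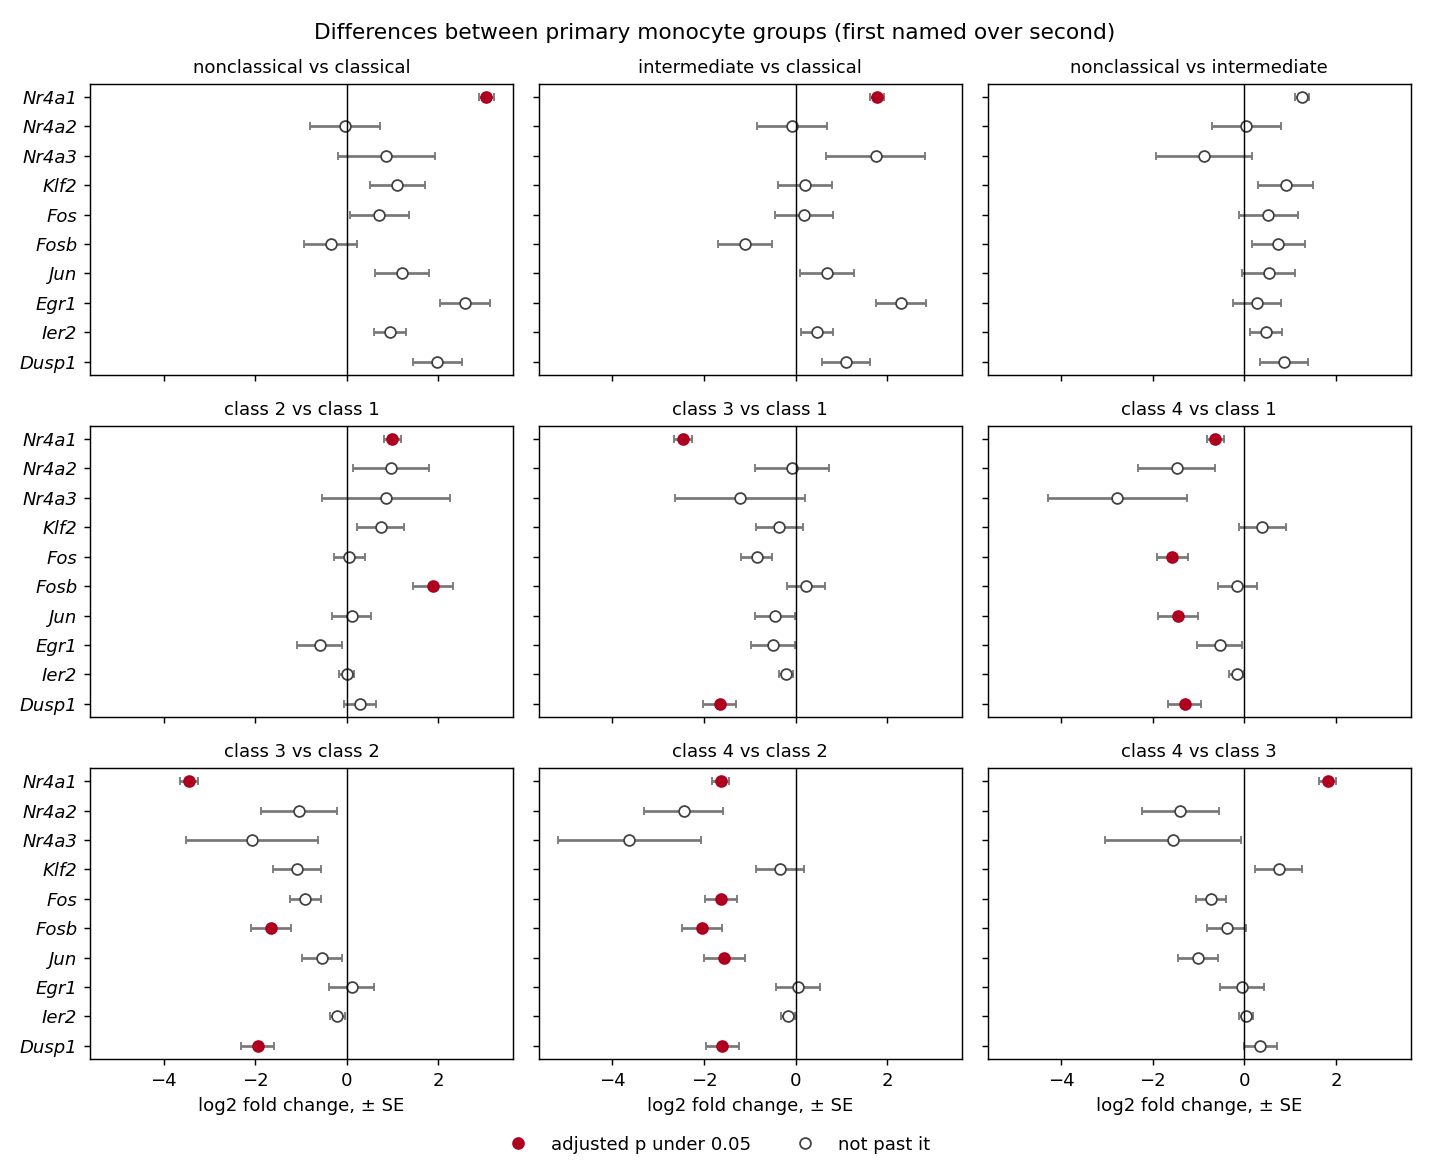
Log2 fold change with SE of the 10 members in each comparison between primary groups, the first-named group over the second. Filled points passed an adjusted p of 0.05 by edgeR. Nr4a1, on the top row of each panel, passed in 8 of the 9 comparisons, and its bars are the shortest or among the shortest of the set.

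The 4 sorted classes were also ordered by Nr4a1. It had 440.7 and 451.9 CPM in class 4, 108.5 and 143.2 CPM in class 3, 1194 and 1445 CPM in class 2, and 625.0 and 767.4 CPM in class 1, with no overlap between any pair of classes. It passed in all 6 comparisons, from a log2 fold change of -3.45 (SE 0.201; adjusted p 1.63e-05, edgeR) for class 3 over class 2 to -0.63 (SE 0.183; adjusted p 0.0387, edgeR) for class 4 over class 1. Class 2 exceeded class 1 by 0.997 (SE 0.184; adjusted p 0.014, edgeR), and class 3 lay below class 1 by -2.46 (SE 0.193; adjusted p 0.000374, edgeR). Class 4 lay below class 2 by -1.63 (SE 0.187; adjusted p 0.000367, edgeR) and above class 3 by 1.82 (SE 0.188; adjusted p 0.000647, edgeR). With class 1 replicate 2 or class 2 replicate 2 left out, class 2 over class 1 did not pass (0.85 and 0.84; adjusted p 0.123 and 0.0835, edgeR), and class 4 over class 1 did not pass with any 1 library left out (-0.78 to -0.48; adjusted p 0.0641 to 0.214, edgeR).

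Counts of members called differed between the comparisons. Class 2 over class 1 had 2 members higher and none lower, against 3.34% of 13686 genes higher and 5.95% lower. Class 3 had 2 members lower than class 1 (5.44% of genes higher, 7.94% lower) and 3 lower than class 2 (11.8% higher, 12.4% lower). Class 4 had 4 members lower than class 1 (10.2% higher, 15% lower), 5 lower than class 2 (19.5% higher, 21.4% lower) and 1 higher than class 3 (13% higher, 15.7% lower). Nr4a2, Nr4a3, Klf2, Egr1 and Ier2 passed in none of the 6 by this fit. In 1 fit of all 14 primary libraries 8 of these calls, all of Fos, Fosb, Jun or Dusp1, did not pass (adjusted p 0.058 to 0.147, edgeR), and DESeq2 added 5, of Fos, Nr4a2 and Nr4a3 (adjusted p 0.0124 to 0.046). With no filter on low counts edgeR added 13, of Klf2, Fos, Jun, Egr1, Nr4a2 and Nr4a3 (adjusted p 2.57e-09 to 0.0423).

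Dusp1 separated classes 3 and 4 from classes 1 and 2. It had 1508 and 3122 CPM in class 4, 1525 and 2101 CPM in class 3, 5086 and 8268 CPM in class 2, and 5385 and 6122 CPM in class 1. Class 3 was lower than class 2 by -1.95 (SE 0.368; adjusted p 0.00625, edgeR) and than class 1 by -1.66 (SE 0.364; adjusted p 0.022, edgeR), and class 4 than class 2 by -1.60 (SE 0.364; adjusted p 0.00972, edgeR) and than class 1 by -1.31 (SE 0.361; adjusted p 0.0332, edgeR). With 1 library left out, Dusp1 stayed lower in class 3 than in class 1 (-1.89 to -1.45) but did not pass (adjusted p 0.08 to 0.138, edgeR). In class 4 it also stayed lower than in class 1 (-1.93 to -0.88) and passed with class 4 replicate 2 left out, not with any of the other 3. Against class 2, class 3 did not pass without class 3 replicate 1 (adjusted p 0.0557, edgeR) and class 4 not without class 2 replicate 2 (0.0675).

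Fosb was highest in class 2. It had 53.1 and 140.4 CPM in class 4, 99.4 and 153.1 CPM in class 3, 330.1 and 427.3 CPM in class 2, and 90.01 and 126.6 CPM in class 1, so that class 2 overlapped with no other class. Class 2 exceeded class 1 by 1.88 (SE 0.435; adjusted p 0.0347, edgeR). Class 3 lay below class 2 by -1.65 (SE 0.431; adjusted p 0.0262, edgeR) and class 4 by -2.04 (SE 0.437; adjusted p 0.00747, edgeR). The first 2 of these did not pass with any 1 library left out (adjusted p 0.0633 to 0.208, edgeR).

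Fos and Jun were low in class 4. Fos had 2549 and 3919 CPM in class 4, 4491 and 6223 CPM in class 3, 6685 and 12430 CPM in class 2, and 8248 and 11130 CPM in class 1. Class 4 was lower than class 2 by -1.63 (SE 0.342; adjusted p 0.00672, edgeR) and than class 1 by -1.58 (SE 0.342; adjusted p 0.0135, edgeR), although not without class 1 replicate 2 (adjusted p 0.0762, edgeR). Jun had 1460 and 1893 CPM in class 4, 2670 and 4074 CPM in class 3, 2699 and 6694 CPM in class 2, and 3392 and 5829 CPM in class 1. Class 4 was lower than class 2 by -1.56 (SE 0.442; adjusted p 0.0243, edgeR) and than class 1 by -1.45 (SE 0.441; adjusted p 0.0459, edgeR). The first did not pass without class 2 replicate 2 (adjusted p 0.192, edgeR) or class 4 replicate 1 (0.0731), and the second not with any 1 library left out (0.0591 to 0.233).

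The members that passed nowhere among the classes by the edgeR fit used above differed in how even they were. Other fits called Klf2, Egr1, Nr4a2 or Nr4a3 in some of these comparisons. Ier2 stayed within 1195 and 1616 CPM in all 8 class libraries. Klf2 ran from 295.8 to 1392 CPM and Egr1 from 200.2 to 805.4 CPM, and in every class the replicates of Klf2 were 1.74 to 2.50-fold apart. Nr4a2 had 0.383 and 3.65 CPM in class 4, 5.14 and 5.49 CPM in class 3, 10.3 and 10.7 CPM in class 2, and 4.67 and 6.64 CPM in class 1. Nr4a3 did not exceed 2.17 CPM in any class library.

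Of 25 other immediate early genes tested, 21 were lower in class 3 than in class 2 and 16 lower than in class 1, with none higher in either. Class 4 had 14 lower and 3 higher than class 2, 10 lower and 2 higher than class 1, and 12 higher and 4 lower than class 3. Class 2 had 5 higher and 1 lower than class 1. Of 12 heat shock genes none passed in class 3 over class 1 or class 2 over class 1, and 2 were lower and 1 higher in class 3 over class 2. Class 4 had 5 lower and 1 higher than class 1, 6 lower and 3 higher than class 2, and 3 lower and 2 higher than class 3. Among them, and chosen after their values were seen, the inducible chaperone Hspa1a was lower in class 4 than in class 1 by -4.49 (SE 0.585; adjusted p 0.00161, edgeR) and than in class 3 by -3.60 (SE 0.562; adjusted p 0.00307, edgeR), and the mitochondrial chaperone Hspd1 was higher than in class 1 by 0.92 (SE 0.113; adjusted p 0.00125, edgeR). Their sums were 5411 to 5670 CPM in class 4, 7063 to 8873 CPM in class 3, 8047 to 13930 CPM in class 2 and 10250 to 13520 CPM in class 1.

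Markers of other cells moved with the classes. Class 4 held 50440 and 70880 CPM of 12 neutrophil genes, against 6423 to 10610 CPM in class 3, 597.0 to 1055 CPM in class 2 and 536.8 to 1408 CPM in class 1. It also held 3801 to 4799 CPM of 7 erythroid genes and 2373 to 2942 CPM of 7 B cell genes, against at most 113.5 CPM and 377.3 CPM in the other classes. Class 2 held the least of the mast cell and basophil genes (0 to 0.306 CPM in sum, with Cpa3, Ms4a2, Fcer1a and Prss34 at 0), and T and NK cell genes summed there to 1.09 to 1.90 CPM, with Trac, Ncr1 and Gzma at 0. Classical monocyte genes summed to 10380 to 11570 CPM in class 4, 16210 to 18110 CPM in class 3, 22900 to 23200 CPM in class 2 and 15790 to 17240 CPM in class 1. Most nonclassical monocyte genes were lower in class 3 than in class 2, among them Ace (-6.70, SE 0.860) and Cd300e (-5.37, SE 0.653). Spn was higher (1.05, SE 0.161), and Cd9 and Itgax did not pass. The macrophage gene C1qa was lower in class 2 than in class 1 (-5.88, SE 0.260), while Mrc1, Cd163 and Timd4 did not pass. These genes were named after their values were seen. The part of such cells in the Nr4a1 order of the classes, or in the lower Fos, Jun and Dusp1 of class 4, was not tested.

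The members also differed between replicates of the same group. Klf2, Fos, Fosb, Jun, Ier2 and Dusp1 were each higher in replicate 2 than in replicate 1 in 7 of 7 primary groups, an ordering that 2.09% of 6313 genes at 10 CPM or more in all 14 libraries showed. The ratio of replicate 2 to replicate 1 was 1.74 to 2.50 for Klf2, 1.35 to 2.69 for Fos, 1.29 to 2.91 for Fosb, 1.297 to 2.48 for Jun, 1.14 to 2.07 for Dusp1 and 1.05 to 1.93 for Ier2. Egr1 was higher in replicate 2 in 6 of 7 groups, all but class 4. Nr4a1 was not part of this pattern, being higher in replicate 2 in 4 of 7 groups with ratios of 0.758 to 1.26. Summed over 27 other immediate early genes, replicate 2 was higher in 7 of 7 groups, with ratios of 1.06 to 1.53, and summed over 12 heat shock genes in 6 of 7, all but class 4, with ratios of 0.954 to 1.73. What the replicate numbers stand for is not given in the sources used here, and a shared day or handling was not tested.

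Nr4a1 relative to Fos therefore depended on the library. Per 100 Fos counts there were 66.1 and 31.0 Nr4a1 counts in nonclassical, 43.7 and 17.5 in intermediate, and 11.2 and 6.46 in classical monocytes. In the classes there were 17.7 and 11.2 in class 4, 3.19 and 1.74 in class 3, 17.9 and 11.6 in class 2, and 9.30 and 5.62 in class 1. Replicate 1 had the higher ratio in each of the 7 groups, and the subsets kept the order nonclassical, intermediate, classical within each replicate number.

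**Figure D5:**
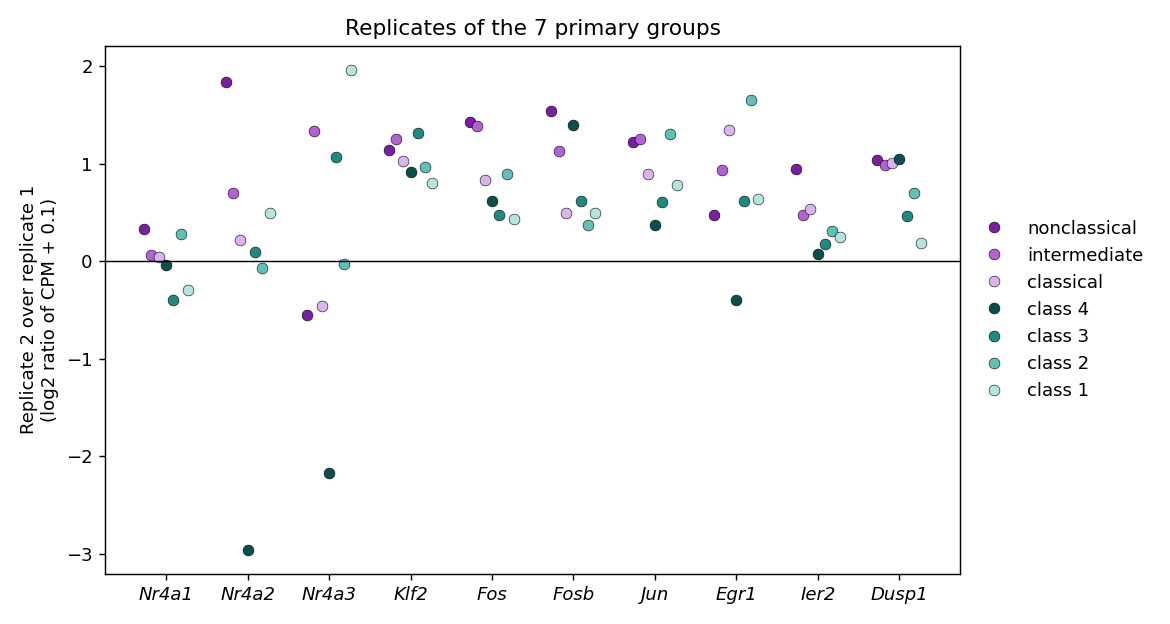
Log2 ratio of replicate 2 over replicate 1, from CPM + 0.1, for each member in the 7 primary groups (points). Points of Klf2, Fos, Fosb, Jun, Ier2 and Dusp1 all lie above 0, those of Nr4a1 lie close to 0 on either side, and those of the scarce Nr4a2 and Nr4a3 scatter widely.

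Set in order over all 9 groups by mean CPM, Nr4a1 ran nonclassical, intermediate, class 2, class 1, classical, class 4, class 3, cultured monocytic and cultured progenitor. Of neighbours in this order, nonclassical and intermediate did not pass the test, intermediate and class 2, class 1 and classical, classical and class 4, and class 3 and monocytic cells were not compared, and the other 3 neighbouring pairs passed. Nonclassical monocytes were also highest for Klf2, Jun, Egr1, Ier2 and Dusp1, whereas class 1 was highest for Fos, classical monocytes for Fosb and Nr4a2, and intermediate monocytes for Nr4a3. The progenitors were lowest for all members but Nr4a2 and Fosb, for which the cultured monocytic cells were lowest.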

How the data were processed

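Total RNA (RNeasy columns, NEB library kits, per the labels' protocols) had been sequenced from the ER-Hoxb8 clones and the sorted primary monocytes. The deposited values are raw read counts per gene, whole numbers for 37620 genes. Per the submitters' processing notes the tools were STAR 2.7.3a and HTSeq 0.6.0 with the mouse build mm9. Strand setting, annotation and filters are not given in the sources used here, so reads of an antisense neighbour cannot be told apart. Groups were taken from titles and source names, and the clone number, which the study's design text describes as pairing progenitors and mature cells, was the block. Of the table's columns 1 has no sample and was not used.

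Counts were fitted in R 4.3.3 with edgeR 4.0.16 (limma 3.58.1 underneath), using filterByExpr with a minimum count of 10, TMM factors, 2-sided quasi-likelihood F tests, Benjamini-Hochberg adjustment over all genes tested and a threshold of 0.05. The 48 clone libraries, the 6 subset libraries, the 8 class libraries, and the 24 monocytic with the 2 classical libraries made 4 fits. edgeR's estimate of the biological coefficient of variation came to 0.814 for the subsets, 0.377 for the classes and 0.384 for the clones. The state by clone set test added an interaction term. Correlations over clones used 100000 permutations in Python 3.11.15 with numpy 2.4.6, whose smallest p is 1e-05. Levels use log2 CPM with a prior count of 2 where a log is given. Alternatives were DESeq2 1.42.0, its size factors, no filter, the block, 1 fit for all 14 primary libraries, single clone sets, and leaving out libraries or clones.

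The members, the lists, the clone sets and the tests were chosen with earlier results of these data known. All 10 members were named. Of each other list up to 3 genes with the largest change past the threshold and a mean log2 CPM of at least 3 were named, in monocytic against progenitor and nonclassical against classical cells, and some were left out for length. Hspa1b in the former comparison, and Cx3cr1, Itgal, Spn and Irf4 in the latter, were named outside this rule, after their values were seen. For likeness the 5 genes with the highest r were taken. Promoter windows are from RefSeq (GRCm38.p6), matched by symbol, and no coordinate was moved between builds. The fits were tested on simulated data.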

Additional observations from a re-analysis of the deposited data

Results flagged for a closer look

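The change between states differed between the clone sets for 2 of 9 members, by the interaction term of the edgeR fit, against 23.7% of all genes tested, so the count is near the background. For Fosb the log2 fold change of monocytic over progenitor cells was higher by 3.12 in clones 15 to 25 than in clones 1 to 13 (SE 0.685, adjusted p 0.00208), with the monocytic library the higher one in 9 of 11 and in 3 of 13 clones. For Jun it was higher by 1.11 (SE 0.314, adjusted p 0.0118), with the monocytic library the higher one in all clones of both sets. The monocytic libraries of clones 15 to 25 are the shallower ones, and the part of depth in these differences was not tested. Fosb was scarce, with a median of 0.646 CPM over all monocytic libraries. In most of the shallow ones its value and its direction therefore rest on a few reads.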

How the results depend on the processing

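Over all members, comparisons and alternatives, 913 values kept their direction and their side of the threshold, 54 lost and 54 gained the call, and 64 changed sign, of which 0 passed the threshold in either fit. Among values given above, the sign changed for the difference between clone sets of Egr1 (-0.06) and Dusp1 (-0.25) without clone 25, which was chosen after seeing the data. It also changed for the correlation over clones of Nr4a1 (-0.01), Nr4a2 (-0.12), Egr1 (-0.08) and Fos (0.02) centred on the clone set, of Fos by Spearman's rho (0.13) and without clone 25 (0.10), and of Fosb without clone 21 (-0.03). The cause was not tested.

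The number of genes called in monocytic against progenitor cells was 9132, and 6070 in clones 15 to 25 alone, which are fewer samples. The clone effect was called for 1357 genes, for 2054 with no filter on low counts, 36 in clones 1 to 13 alone and 387 in clones 15 to 25 alone. Correlations passed for 958 genes, for 421 by Spearman's rho and for 135 centred on the set. DESeq2 called 3366 genes for nonclassical against classical (811 by edgeR), 3111 for intermediate against classical (294), 1212 for nonclassical against intermediate (0), 2234 for class 2 against class 1 (1272) and 2797 for class 3 against class 1 (1831). With no filter, class 2 against class 1 gave 2325. In 1 fit of all 14 primary libraries the counts were 2742, 2331 and 624 for these 3 subset comparisons, 572, 888 and 1722 for classes 2, 3 and 4 against class 1, 2005 and 3357 for classes 3 and 4 against class 2, and 1993 for class 4 against class 3, for which the separate fits gave 3442 (class 4 against class 1), 3310, 5604 and 3917. Classical against cultured monocytic cells gave 4405 genes, and 2263 with clones 15 to 25 alone.

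With 1 library left out the counts ran from 0 to 869 for nonclassical against classical, 0 to 14 for intermediate against classical, 495 to 622 for class 2 and 615 to 888 for class 3 against class 1, 1546 to 4305 for class 4 against class 1, 1922 to 2170 for class 3 and 3487 to 6099 for class 4 against class 2, 1798 to 4704 for class 4 against class 3, and 1858 to 2113 for classical against cultured cells. For nonclassical against intermediate the count was 0 each time. A lone library was then assumed to vary like the others.

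Replicate numbers are shared between primary groups, but the labels tie them to no animal or day. Deviations of same-numbered libraries had correlations of 0.18, 0.281 and 0.384 among the subsets and of -0.0106 to 0.0728 among the classes. With the replicate block, nonclassical against classical gave 670 genes, with Klf2 (adjusted p 0.0405), Jun (0.0282), Egr1 (0.0234) and Dusp1 (0.00981) passing beside Nr4a1, and intermediate against classical gave 263, with Egr1 (0.0438) and Dusp1 (0.0356) beside Nr4a1. Among the classes the replicate block added Klf2 for class 2 against class 1 (0.0275), class 3 against class 2 (0.00164) and class 4 against class 3 (0.00763), Fos for class 3 against class 1 (0.0106), class 3 against class 2 (0.00539) and class 4 against class 3 (0.00969), and Jun for class 4 against class 3 (0.0174). Without the clone as replicate block, 8913 genes passed in the paired comparison. With groups of 2 libraries, a member that did not pass is not shown to be equal.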
